A study of Mus musculus with 6 samples.

Results

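A set of 10 genes that mark fibroblasts of the heart in their resting and in their activated state was followed in RNA of mouse heart tissue below a coronary ligature. The files list 17441 genes in any of the 6 libraries. *Tcf21*, *Gsn*, *Pi16*, *Dpep1* and *Ddr2* stood for resting fibroblasts, and *Acta2*, *Tagln*, *Cthrc1*, *Fap* and *Meox1* for activated ones. All 10 were found by gene symbol through their NCBI gene numbers, and all 10 passed the filter on low values described below and were listed above 0 in every library. Values of whole tissue do not show which cells a transcript came from. The activated genes were higher in infarcted than in sham-operated WT hearts and 3 of them were higher again in the libraries labelled *Card9* KO MI, whereas the resting genes moved in both directions or did not pass the test.

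The mice were male and 12 weeks old, and 3 groups with 2 libraries each were compared 3 days after surgery. WT sham were wild-type mice after a sham operation, WT MI were wild-type mice after ligation of the left coronary artery, which causes a myocardial infarction (MI), and *Card9* KO MI were knockout mice for *Card9*, which codes for an adapter protein of innate immune signalling, after the same ligation. By the study's methods, all strains were on a C57BL/6 background and WT controls were littermates or C57BL/6 mice. No sham-operated knockout group was analysed here, and therefore the effects of genotype and of infarction cannot be told apart when *Card9* KO MI is set against WT sham. For the same reason, *Card9* KO MI against WT MI cannot separate another response to the infarction from a difference between the genotypes without infarction. Below, the libraries of these groups are also called sham hearts, WT infarcts and infarcts labelled *Card9* KO. The labels do not say whether a library came from 1 mouse or from several, so p-values measure the spread between libraries, which may be technical.

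Fibroblasts of the adult heart lie between the cardiomyocytes and maintain the collagen network. After an infarction they leave the resting state, divide, move into the damaged tissue and lay down the scar, and many of them take on actin filaments of the smooth muscle type and are then called myofibroblasts. Resting fibroblasts are recognised by transcription factors, surface receptors and secreted proteins, activated ones by contractile proteins and by proteins that act on the matrix. Several of these genes are not private to fibroblasts: *Acta2* and *Tagln* are also expressed in vascular smooth muscle, and *Gsn* in many cell types. In whole tissue, fewer cells of a type and less RNA per cell cannot be told apart.

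The authors deposited FPKM values, that is, fragments per kilobase of gene, scaled to the total of the library, so levels can be compared between genes per unit of length. Read counts were not used here, and the depth estimated from the steps between the lowest values ranged from 3022000 to 4300000 fragments per library. The 13120 genes that reached an FPKM of 1 in 2 or more libraries were tested with limma on log2(FPKM + 1) in a single fit of all groups, with Benjamini-Hochberg adjustment over all of these genes. An adjusted p below 0.05 is a call, and log2 fold changes below are on this scale, which understates the change of low genes. The 2 libraries of each group correlated across genes with a Pearson's r of 0.98 in sham hearts, 0.981 in WT infarcts and 0.98 under the knockout label, though genes are not independent replicates. The tissue was heart by its markers: all 8 cardiomyocyte markers were listed in every library, with a summed FPKM between 24041 and 48383.

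*Card9*, the targeted gene, had an FPKM of 0.99 and 1.03 in sham hearts, 3.39 and 5.08 in WT infarcts, and 9.85 and 6.94 in infarcts labelled *Card9* KO. It was therefore not lower under the knockout label than in WT MI (limma log2 fold change 0.85, adjusted p = 0.11). Which exons these fragments came from cannot be seen in 1 value per gene. Every direction given below for *Card9* KO MI against WT MI rests on that label.

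Among the resting genes, *Gsn* (gelsolin, which severs and caps actin filaments; mm9 chr2:35111927-35163420, plus strand) was by far the most abundant. Its FPKM was 412.08 and 433.81 in sham hearts, 267.18 and 255.06 in WT infarcts, and 165.87 and 185.35 in infarcts labelled *Card9* KO. The groups did not overlap, and each step went down. *Pi16* (peptidase inhibitor 16, a secreted protein of the CAP superfamily; mm9 chr17:29455822-29466358, plus strand) was found at an FPKM of 39.37 and 32.27 in sham hearts, 31.23 and 32.23 in WT infarcts, and 26.65 and 34.12 in infarcts labelled *Card9* KO. Here the libraries labelled *Card9* KO MI spanned the whole range of WT MI.

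*Dpep1* (a membrane dipeptidase that cleaves leukotriene D4 and products of glutathione; mm9 chr8:125710135-125725710, plus strand) stood at an FPKM of 25.55 and 27.38 in sham hearts and 24.48 and 28.44 in WT infarcts, but at 12.37 and 14.61 in infarcts labelled *Card9* KO. The WT groups overlapped, and both libraries labelled *Card9* KO MI lay below all 4 WT libraries. *Tcf21* (a basic helix-loop-helix transcription factor of the fibroblast lineage; mm9 chr10:22537085-22539934, minus strand) was found at an FPKM of 5.16 and 6.73 in sham hearts, 5.04 and 7.88 in WT infarcts, and 12.13 and 8.69 in infarcts labelled *Card9* KO. The highest 2 values were those of the libraries labelled *Card9* KO MI. These values rest on about 19.9 to 63.8 estimated fragments per library. *Ddr2* (a receptor tyrosine kinase that binds fibrillar collagen; mm9 chr1:171902439-172040632, minus strand) was found at an FPKM of 6.31 and 4.76 in sham hearts, 9.27 and 8.54 in WT infarcts, and 9.81 and 8.86 in infarcts labelled *Card9* KO. All 4 infarct libraries lay above WT sham, and the infarct groups overlapped.

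Of the activated genes, *Acta2* (smooth muscle alpha actin, the filament protein of myofibroblasts; mm9 chr19:34315580-34329826, minus strand) was found at an FPKM of 34.75 and 54.23 in sham hearts, 117.28 and 97.16 in WT infarcts, and 252.13 and 239.14 in infarcts labelled *Card9* KO. *Tagln* (transgelin, an actin-binding protein that accompanies *Acta2* in smooth muscle and myofibroblasts; mm9 chr9:45737711-45744141, minus strand) was found at an FPKM of 14.03 and 13.38 in sham hearts, 37.61 and 44.64 in WT infarcts, and 125.15 and 105.68 in infarcts labelled *Card9* KO. For both genes the 3 groups were separate and lay in the same order.

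*Cthrc1* (collagen triple helix repeat containing 1, a secreted glycoprotein of matrix-producing fibroblasts; mm9 chr15:38908478-38918667, plus strand) was close to the detection limit in WT sham, at an FPKM of 0.55 and 0.29. These values correspond to about 2.02 and 1.02 fragments, whereas 3 fragments are worth an FPKM of 0.816 and 0.853 in these libraries. It reached 19.81 and 28.79 in WT infarcts and 81.74 and 74.19 in infarcts labelled *Card9* KO. Of the 10 genes, *Cthrc1* was the one with the widest range over the libraries on the log scale. *Fap* (fibroblast activation protein, a serine protease of the cell surface; mm9 chr2:62339000-62412132, minus strand) stayed low, with an FPKM of 0.70 and 0.85 in sham hearts, 2.28 and 3.01 in WT infarcts, and 3.60 and 3.67 in infarcts labelled *Card9* KO. The WT sham values rest on about 6.09 and 7.07 fragments. *Meox1* (a homeobox transcription factor known as a regulator of fibroblast activation; mm9 chr11:101738824-101755688, minus strand) was found at an FPKM of 21.33 and 11.94 in sham hearts, 33.14 and 32.03 in WT infarcts, and 58.22 and 58.38 in infarcts labelled *Card9* KO. The WT sham libraries differed by more than the 4 infarct libraries did within their groups.

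Promoter sequence was available for 6 of the 10 genes in the RefSeq table used here (build GRCm38.p6), with 3 start sites for *Gsn*, and not for *Tagln*, *Cthrc1*, *Fap* and *Meox1*. The 250 bases before each start were searched on both strands for the letters CATTCC, the MCAT element bound by TEAD factors, and for the CArG box bound by serum response factor. *Acta2* and *Dpep1* each held 1 MCAT match, as did 12.6% of 32851 promoters of the same length. None of the 6 genes held a CArG box in its strict form (CC, 6 bases of A or T, then GG), which 1.47% of all promoters held. Near matches were not searched for. The *Acta2* sequence below holds the stretches ccctatatgg and ccttgtttgg, each 1 base away from the strict form. These letters say nothing of whether a factor binds. The promoters of *Acta2* and *Dpep1* are shown because they belong to the activated gene with the highest level and to the resting gene that was low under the knockout label alone. They are written from 250 bases before the start to the base before it, 5′ to 3′ on the strand of the gene, with the MCAT match in capitals, in *Acta2* on the opposite strand, 146 bases before the start, and in *Dpep1* on the strand of the gene, 67 bases before it.
Acta2 (GRCm38.p6 chr19:34255374-34255623, minus strand): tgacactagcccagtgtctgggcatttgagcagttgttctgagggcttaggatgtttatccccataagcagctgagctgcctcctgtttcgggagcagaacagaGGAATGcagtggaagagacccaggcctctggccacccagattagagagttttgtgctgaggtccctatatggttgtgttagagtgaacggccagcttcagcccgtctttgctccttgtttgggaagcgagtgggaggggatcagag
Dpep1 (GRCm38.p6 chr8:123185985-123186234, plus strand): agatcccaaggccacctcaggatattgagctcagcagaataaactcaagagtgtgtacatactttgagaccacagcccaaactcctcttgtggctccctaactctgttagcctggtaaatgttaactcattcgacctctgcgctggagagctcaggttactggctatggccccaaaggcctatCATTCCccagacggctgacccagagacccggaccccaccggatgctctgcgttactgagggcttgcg

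**Figure D1:**
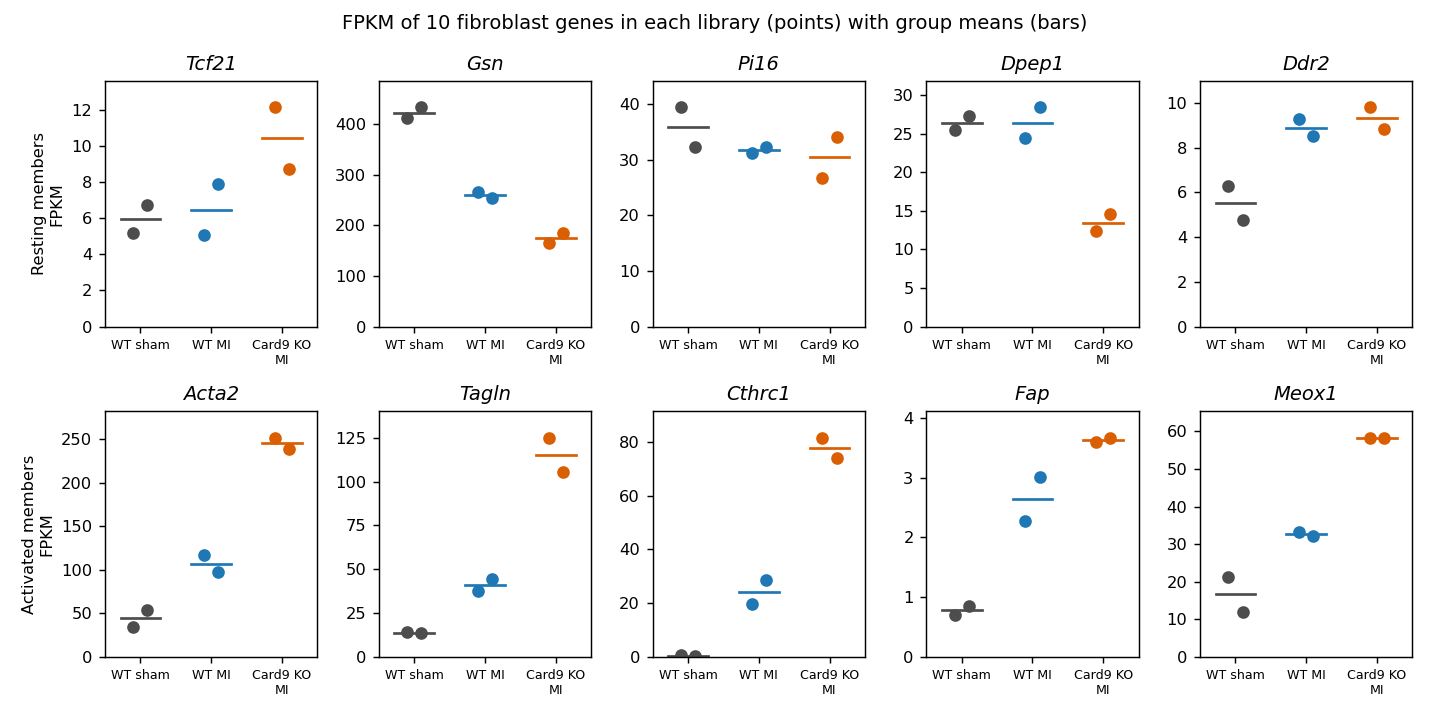
FPKM (vertical axes, from 0, one scale per gene) of the 5 resting genes in the upper row and the 5 activated genes in the lower row, for each library (points) of each group, with bars at the group means. Against WT sham, each of the 5 activated genes is called higher in WT infarcts, and *Acta2*, *Tagln* and *Cthrc1* are higher again in the libraries labelled *Card9* KO MI, for *Acta2* from a mean of 44.5 to 107 and 246, while *Gsn* steps down from 423 to 261 and 176 and *Dpep1* is low only under the knockout label.

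The order of the levels changed between the groups. In WT sham, *Gsn* led with a mean FPKM of 423, followed by *Acta2* at 44.5 and *Pi16* at 35.8, which overlapped, and by *Dpep1* at 26.5. *Meox1* at 16.6 overlapped with *Tagln* at 13.7, *Tcf21* at 5.95 overlapped with *Ddr2* at 5.54, and *Fap* and *Cthrc1* came last at 0.775 and 0.42. In WT MI, *Tagln* at 41.1 had passed *Pi16* and *Dpep1*, and *Cthrc1* at 24.3 overlapped with *Dpep1* at 26.5. In the libraries labelled *Card9* KO MI, *Acta2* at 246 stood above *Gsn* at 176, and *Tagln* at 115, *Cthrc1* at 78 and *Meox1* at 58.3 all stood above *Pi16* at 30.4.

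As a share of the summed FPKM of the 10 genes, the 5 activated genes held 12.7% and 13.8% in sham hearts, 38.4% and 38.2% in WT infarcts, and 69.7% and 65.7% in infarcts labelled *Card9* KO. *Gsn* alone held 73.6% and 74.1%, 48.8% and 47.4%, and 22.2% and 25.3% in the same order, so this share follows mainly *Gsn* and *Acta2*. The median log2(FPKM + 1) of the activated genes minus that of the resting genes was −0.82 and −1.13 in sham hearts. It was 0.42 and 0.17 in WT infarcts, and 2.63 and 2.27 in infarcts labelled *Card9* KO. A median of 5 genes is the value of a single gene. For the resting genes it was *Dpep1* in every library. For the activated genes it was *Tagln* or *Meox1* in sham hearts, *Meox1* in WT infarcts and *Cthrc1* in infarcts labelled *Card9* KO. The difference therefore follows these genes, and in WT sham replicate 1 it is that of *Tagln* and *Dpep1*. Single pairs moved the same way: the ratio of *Acta2* to *Gsn* was 0.0843 and 0.125 in sham hearts, 0.439 and 0.381 in WT infarcts, and 1.52 and 1.29 in infarcts labelled *Card9* KO. The ratio of *Tagln* to *Dpep1* was 0.549 and 0.489, then 1.54 and 1.57, and then 10.1 and 7.23. Such ratios within a library do not change with a single scale factor per library, but they can change with quantile normalization. They were chosen after the values were seen and were not tested.

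The first comparison asks what an infarction of 3 days did to the fibroblast genes in WT mice. All 5 activated genes rose and 1 resting gene, *Gsn*, fell, while *Ddr2*, counted among the resting genes, rose with the activated ones. In all, 6 of the 10 genes were called higher, where 27.7% of all genes tested were, and 1 was called lower, where 9.39% of all genes were. The median log2 fold change was 1.28 over the activated genes and 0.00 over the resting genes, beside 0.19 over all genes tested. By values that do not overlap between the groups, 6 of the 10 genes were higher in WT MI (48.3% of all genes) and 2 were lower (22.1% of all genes).

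*Cthrc1* rose most, by a log2 fold change of 4.14 (standard error 0.19, adjusted p = 1.9e-05, limma with Benjamini-Hochberg adjustment). Because WT sham held only about 3 fragments of *Cthrc1* in all, the ratio of fragments per depth was 58.0 with an exact 95% interval of 19.6 to 283, which covers counting error only. *Tagln* rose by 1.51 on the log2 scale (standard error 0.13, adjusted p = 1.5e-04) and *Acta2* by 1.28 (standard error 0.19, adjusted p = 0.0019). *Fap* rose by 1.03 (adjusted p = 0.0057) and *Meox1* by 0.98 (adjusted p = 0.011). The *Meox1* call was lost without WT MI replicate 1 (adjusted p = 0.068) and without WT MI replicate 2 (adjusted p = 0.056).

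*Gsn* fell by 0.69 on the log2 scale (standard error 0.093, adjusted p = 0.0011). *Ddr2* rose by 0.61 (standard error 0.16, adjusted p = 0.022), a call that was lost with upper-quartile scaling (adjusted p = 0.053), with quantile normalization (adjusted p = 0.16), and without WT sham replicate 2, WT MI replicate 1 or WT MI replicate 2 (adjusted p of 0.11, 0.12 and 0.070). *Pi16*, *Dpep1* and *Tcf21* did not pass the test, at log2 fold changes of −0.16, 0.00 and 0.09, with 95% intervals of −0.51 to 0.18, −0.31 to 0.30 and −0.47 to 0.64. The scale of the libraries touches small values like these: over all tested genes the median log2 fold change shifted from 0.19 for the deposited values to 0.05 after upper-quartile scaling and −0.09 after quantile normalization, and *Tcf21* changed sign to −0.05 and −0.20 with these scalings.

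The second comparison asks how the infarct of mice labelled *Card9* KO differed from that of WT mice at the same time. Infarcts labelled *Card9* KO had more *Tagln*, *Cthrc1* and *Acta2*, and less *Dpep1* and *Gsn*. These are 3 of the 10 genes called higher, where 0.816% of all genes tested were, and 2 called lower, where 0.587% of all genes were. The median log2 fold change was 1.19 over the activated genes and −0.07 over the resting genes, beside 0.04 over all genes tested. By values that do not overlap, 6 of the 10 genes were higher (30.8% of all genes) and 2 were lower (21.9% of all genes), and *Pi16* and *Ddr2* overlapped. The comparison shares the WT MI libraries with the first one, so the changes of a gene in the 2 comparisons are not independent of each other.

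*Cthrc1* was higher by a log2 fold change of 1.66 (standard error 0.19, adjusted p = 0.015, limma with Benjamini-Hochberg adjustment), *Tagln* by 1.47 (standard error 0.13, adjusted p = 0.0068) and *Acta2* by 1.19 (standard error 0.19, adjusted p = 0.039). The calls depended on the processing and on single libraries. In the 10 alternative settings without a left-out library, *Tagln* was called in 10, *Cthrc1* in 8 and *Acta2* in 6. *Tagln* lost its call without WT MI replicate 1 (adjusted p = 0.059) and without *Card9* KO MI replicate 1 (adjusted p = 0.050). *Cthrc1* lost it without WT MI replicate 1, *Card9* KO MI replicate 1 or *Card9* KO MI replicate 2 (adjusted p of 0.097, 0.10 and 0.058). *Acta2* lost it without any one of the 4 infarct libraries (adjusted p of 0.084 to 0.19). The log2 fold changes of these 3 genes stayed positive in all 16 alternative settings, from 1.35 to 1.59 for *Tagln*, from 1.40 to 1.92 for *Cthrc1* and from 1.06 to 1.33 for *Acta2*.

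*Meox1* and *Fap* did not pass the test in this comparison. *Meox1* had a log2 fold change of 0.82 with a 95% interval of 0.30 to 1.34 (adjusted p = 0.11), and it was called without either WT sham library (adjusted p = 0.028 in both cases), which enter only through the estimate of the spread. *Fap* had a log2 fold change of 0.35 with a 95% interval of −0.11 to 0.82 (adjusted p = 0.37). Its mean FPKM was 2.64 in WT infarcts and 3.63 in infarcts labelled *Card9* KO.

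*Dpep1* was lower by 0.92 on the log2 scale (log2 fold change −0.92, standard error 0.13, adjusted p = 0.027), with a mean FPKM of 26.5 in WT infarcts and 13.5 under the knockout label. Of the 10 genes, it is the one that was called here and stood at the same mean FPKM, 26.5, in WT sham and WT MI. Its call was lost without WT sham replicate 2 (adjusted p = 0.051) and without any one of the 4 infarct libraries (adjusted p of 0.058 to 0.15). *Gsn* had a log2 fold change of −0.57 (standard error 0.093, adjusted p = 0.039), and its call was lost without any one of the 6 libraries (adjusted p of 0.058 to 0.29). In the 10 alternative settings without a left-out library, *Dpep1* was called in 7 and *Gsn* in 5. Both genes stayed below 0 in all 16 alternative settings. *Tcf21*, at a log2 fold change of 0.62 with a 95% interval of 0.07 to 1.18 (adjusted p = 0.20), *Ddr2* at 0.06 with an interval of −0.32 to 0.44, and *Pi16* at −0.07 with an interval of −0.41 to 0.27 did not pass the test.

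Without WT MI replicate 1, and likewise without *Card9* KO MI replicate 1, limma called 0 of the 10 genes after adjustment, where 6 had an unadjusted p below 0.05. Without *Card9* KO MI replicate 2, 1 gene was called, and without WT MI replicate 2, 2 genes. Over all genes, 184 were called with the 6 libraries, 12 without the filter on low values, and 8 to 20 with one infarct library left out.

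**Figure D2:**
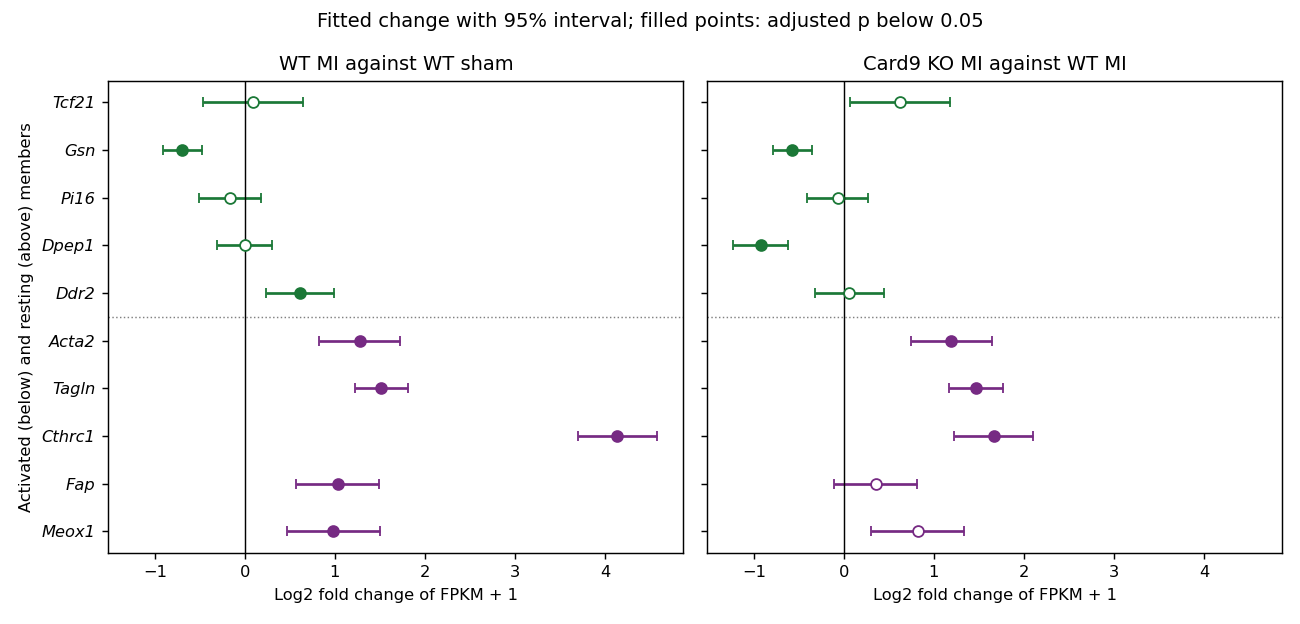
Log2 fold change of FPKM + 1 (horizontal axes, the same scale in both panels) of the 5 resting genes (upper rows) and 5 activated genes (lower rows), in WT MI against WT sham on the left and in *Card9* KO MI against WT MI on the right. Bars are unadjusted 95% intervals from the limma fit, and filled points have an adjusted p below 0.05. On the left all 5 activated genes and *Ddr2* are called above 0, and on the right *Acta2*, *Tagln* and *Cthrc1* are above 0 and *Gsn* and *Dpep1* below it.

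Set directly against WT sham, the libraries labelled *Card9* KO MI had 7 of the 10 genes called higher, beside 34.8% of all genes tested, and 2 called lower, beside 14.3% of all genes. This comparison shares its libraries with the others. The log2 fold changes were 5.80 for *Cthrc1*, 2.98 for *Tagln*, 2.47 for *Acta2*, 1.80 for *Meox1* and 1.39 for *Fap*, each above its value in WT MI against WT sham. The ratio of *Cthrc1* fragments per depth was 187, with an exact 95% interval of 63.8 to 909. *Gsn* stood at −1.27 and *Dpep1* at −0.93. *Ddr2* at 0.67 (adjusted p = 0.011) and *Tcf21* at 0.71 (adjusted p = 0.041, limma with Benjamini-Hochberg adjustment) were called higher. The *Tcf21* call was lost in 9 of 16 alternative settings, among them the replicate block, upper-quartile scaling (adjusted p = 0.092), quantile normalization (adjusted p = 0.25) and the fits without WT sham replicate 1 (adjusted p = 0.18), WT sham replicate 2 (adjusted p = 0.055) or *Card9* KO MI replicate 1 (adjusted p = 0.23). The *Ddr2* call was lost without WT sham replicate 2 (adjusted p = 0.058), without *Card9* KO MI replicate 1 (adjusted p = 0.070) and with quantile normalization (adjusted p = 0.16).

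Further genes of the same 2 states were taken from lists of 10 each, and their counts stand beside the shares of all genes called that were given above for each comparison. These lists were chosen with earlier results of these data known, so their counts are not independent support for the 10 genes. Of the other activated fibroblast genes, which code mainly for matrix proteins, 9 of 10 rose in WT MI against WT sham, with a median log2 fold change of 2.78. *Tnc* (tenascin C) rose by 5.09 and *Lox* (lysyl oxidase, which cross-links collagen) by 4.35, while *Cdh11* (cadherin 11, an adhesion protein) stood at −0.13 and did not pass the test. The FPKM of *Tnc* went from 1.14 and 0.87 in WT sham to 67.36 and 66.83 in WT MI. Against WT MI, 4 of these 10 genes were called higher in *Card9* KO MI, and the median was 0.72. *Postn* (periostin, the matricellular protein of activated fibroblasts) had an FPKM of 24.64 and 16.85 in sham hearts, 183.74 and 240.89 in WT infarcts, and 625.98 and 627.00 in infarcts labelled *Card9* KO, a log2 fold change of 1.57 (adjusted p = 0.016, limma with Benjamini-Hochberg adjustment). *Fn1* (fibronectin) followed with a log2 fold change of 1.02. *Col8a1* (a chain of type VIII collagen) at 0.97 and *Ltbp2* (a microfibril protein) at 0.80 were the other 2, named because the count is small. *Lox* at 0.31 and *Itga11* (a collagen-binding integrin chain) at 0.23 did not pass the test. Over the 16 alternative settings, 0 to 4 of the list were called, with medians of 0.45 to 0.90, and 8 of the 10 had an unadjusted p below 0.05 in the fit of all libraries.

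Of the other resting fibroblast genes, 3 of 10 rose and 1 fell in WT MI against WT sham, at a median log2 fold change of 0.03. These counts are near the shares of all genes tested, 27.7% higher and 9.39% lower. *Medag* (named for a role in fat cell formation) rose by 1.38 and *Pdgfra* (a receptor for platelet-derived growth factor found on fibroblasts at large) by 0.93, and *Dpt* (dermatopontin, a matrix protein), named because the count is small, by 0.44. *Inmt* (an indolethylamine methyltransferase) fell by 1.13, a call that held in 5 of 15 alternative settings, and *Clec3b* (tetranectin) stood at −0.65 and did not pass the test. The split of this list turned with scaling, to 3 higher and 3 lower with upper-quartile scaling and 2 higher and 3 lower with quantile normalization. Under the knockout label, 2 of 10 were called lower than in WT MI, and the median was −0.40. *Cxcl14* (a chemokine) had an FPKM of 17.83 and 15.02 in sham hearts, 21.31 and 27.43 in WT infarcts, and 8.94 and 4.72 in infarcts labelled *Card9* KO, a log2 fold change of −1.74 (adjusted p = 0.033). *Hsd11b1* (which regenerates active glucocorticoid) had 9.66 and 8.04, 7.55 and 13.15, and 3.29 and 3.24, a log2 fold change of −1.37 (adjusted p = 0.047, limma with Benjamini-Hochberg adjustment). With *Dpep1* these 2 genes share the pattern of a low level under the knockout label alone, with both libraries labelled *Card9* KO MI below all 4 WT libraries, which was noticed after the values were seen. *Dpt* at 0.18 and *Smoc2* (a matricellular protein) at 0.16 had the highest values of the list and did not pass the test. The *Cxcl14* and *Hsd11b1* calls held in 7 and in 5 of 16 alternative settings.

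**Figure D3:**
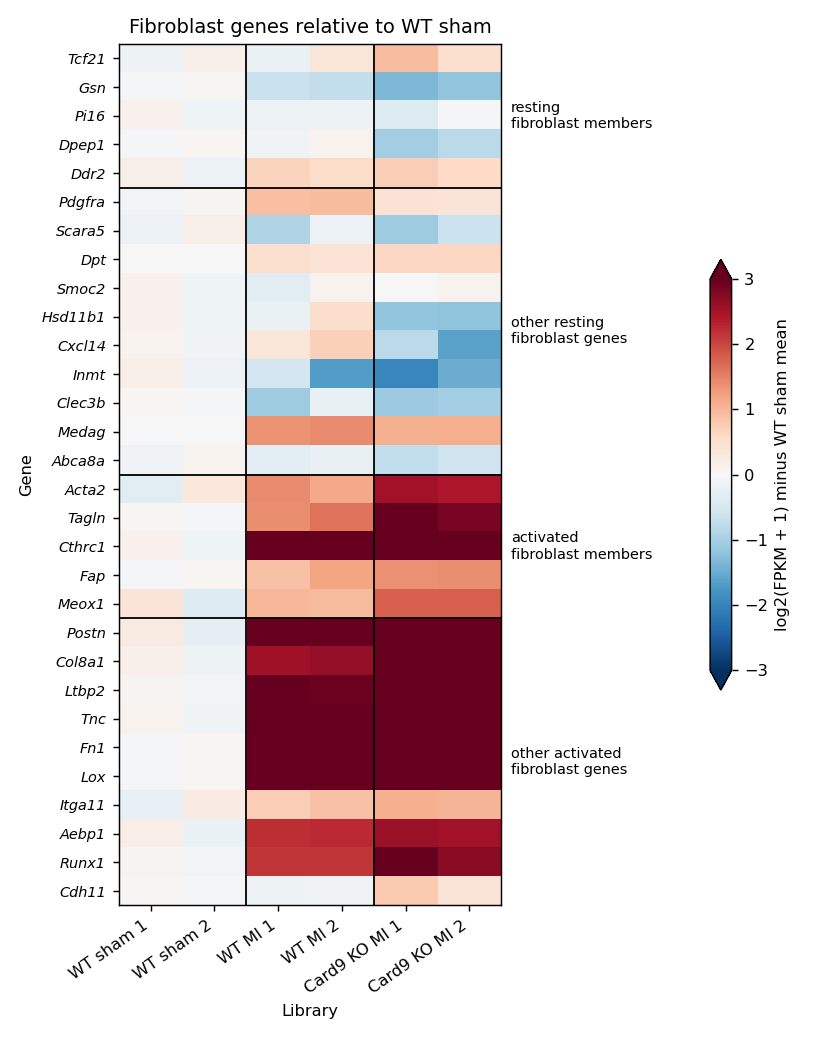
Log2(FPKM + 1) of 30 fibroblast genes (rows, in 4 lists) in each of the 6 libraries (columns), minus the mean of the WT sham libraries. Red is above and blue below WT sham, and colours are capped at 3 and −3. Most rows of the activated lists are red in WT MI and no paler in the libraries labelled *Card9* KO MI, whereas the resting lists hold both red rows (*Ddr2*, *Medag*) and rows that are blue mainly in the last 2 columns (*Dpep1*, *Hsd11b1*, *Cxcl14*).

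Smooth muscle and pericyte markers were read beside *Acta2* and *Tagln*, because these cells express both genes. Their summed FPKM was lower in WT MI, at 248 and 251 beside 330 and 369 in WT sham, and was 256 and 282 in *Card9* KO MI. All 10 were listed in every library. *Rgs5*, *Abcc9* and *Smtn* (smoothelin) had the highest FPKM of the list, so the sum follows mainly them and not lower genes such as *Myh11* and *Cnn1*. In WT MI against WT sham, 1 of the 10 rose and 4 fell. *Cnn1* (calponin 1, also made by myofibroblasts) rose by 0.86. *Abcc9* (a subunit of a potassium channel) fell by 0.82 and *Synpo2* (an actin-bundling protein) by 0.64. *Rgs5* and *Kcnj8*, both pericyte genes and named because the count is small, fell by 0.58 and 0.47. *Myh11*, *Lmod1*, *Mylk*, *Smtn* and *Notch3* did not pass the test, at −0.02, 0.01, 0.20, −0.23 and 0.24. The lower sum is thus not shared by all markers of the list. *Myh11*, the myosin of differentiated smooth muscle, had an FPKM of 5.18 and 5.31 in sham hearts, 5.11 and 5.21 in WT infarcts, and 7.44 and 10.80 in infarcts labelled *Card9* KO. The ratio of *Acta2* to *Myh11* was 6.71 and 10.2 in sham hearts, 23.0 and 18.6 in WT infarcts, and 33.9 and 22.1 in infarcts labelled *Card9* KO. Between the infarct groups, limma called 0 of these 10 markers after adjustment, and 5 were higher and 1 lower at an unadjusted p below 0.05, with values above 0 in 9 of the 10 and a median of 0.27 on the log2 scale. *Cnn1* at 1.00 (adjusted p = 0.073) and *Lmod1* at 0.70 had the highest values, with *Myh11* also at 0.70 and *Mylk* (myosin light chain kinase) at 0.46, and *Abcc9* at −0.44 and *Kcnj8* at 0.03 the lowest. The part of smooth muscle cells in the higher *Acta2* and *Tagln* of *Card9* KO MI was not tested.

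Genes of the actin cytoskeleton, into which *Acta2*, *Tagln* and *Gsn* fit as a filament, a binding protein and a severing protein, rose widely in WT MI: 9 of 10 were called higher against WT sham, at a median log2 fold change of 1.32. *Actn1* (alpha-actinin 1, a cross-linker) rose by 2.68 and *Tagln2* (the transgelin of non-muscle cells) by 1.95, whereas *Tpm1* (a tropomyosin that cardiomyocytes make in large amounts) stood at −0.21 and did not pass the test. Between the infarct groups, 1 of the 10 was called higher, *Myl9* (a regulatory light chain of smooth muscle and non-muscle myosin). Its FPKM was 16.02 and 21.66 in sham hearts, 33.87 and 29.82 in WT infarcts, and 94.16 and 91.51 in infarcts labelled *Card9* KO, a log2 fold change of 1.52 (adjusted p = 0.0088, limma with Benjamini-Hochberg adjustment), beside 1.47 for *Tagln* and 1.19 for *Acta2*. It was called in 11 of 16 alternative settings. The rest of the list was lower on this scale, with *Tpm2* next at 0.70 and a median of 0.40, and *Tpm1* at −0.09 and *Vcl* (vinculin) at 0.09 did not pass the test either.

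Of 10 regulators upstream of contractile genes, namely serum response factor (*Srf*), its coactivators and parts of the transforming growth factor beta pathway, 4 rose in WT MI against WT sham, where 27.7% of all genes tested did. *Tgfb1* (the ligand) rose by 1.34 and *Tgfbr2* (its receptor) by 1.13, and *Mrtfa* (an *Srf* coactivator held by monomeric actin) and *Tgfbr1* (the second receptor chain), named because the count is small, by 0.98 and 0.84. *Myocd* (the cardiac and smooth muscle coactivator) and *Srf* stood at −0.50 and −0.20 and did not pass the test, although 2 of the list were called lower after upper-quartile scaling and likewise after quantile normalization. Between the infarct groups limma called 0 of the 10 after adjustment, and 1 had an unadjusted p below 0.05. *Tgfbr1* at 0.55 and *Scx* (a basic helix-loop-helix factor of tendon and matrix-producing cells) at 0.37 were highest, and *Smad3* (a signal transducer of the pathway) at −0.28 and *Srf* at −0.22 lowest. The FPKM of *Srf* was 53.83 and 49.36 in sham hearts, 45.74 and 44.02 in WT infarcts, and 38.08 and 38.62 in infarcts labelled *Card9* KO.

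Relatives of the 10 genes by sequence family were read beside them. Of 15 that could be tested, 6 rose and 1 fell in WT MI against WT sham, beside 27.7% and 9.39% of all genes tested. *Capg* (a capping relative of gelsolin found in macrophages) rose by 3.01 and *Dpep2* (a leukocyte relative of *Dpep1*) by 2.99, where *Gsn* itself fell and *Dpep1* did not pass the test. *Svil* (supervillin, another gelsolin relative), named because the count is small, fell by 0.44. *Tagln3* and *Scin*, relatives of *Tagln* and *Gsn*, stood at −0.61 and −0.52, and *Meox2*, the other *Meox* gene, at 0.42, none of them past the test. In *Card9* KO MI against WT MI, 1 relative was called higher: *Actg2* (the gamma actin of smooth muscle), with an FPKM of 0.24 and 0.50 in sham hearts, 0.93 and 0.98 in WT infarcts, and 4.15 and 3.66 in infarcts labelled *Card9* KO, a log2 fold change of 1.33 (adjusted p = 0.039) that was called in 6 of 15 alternative settings. Every WT library held *Actg2* below an FPKM of 1, so this gene passed the filter only through its values under the knockout label. Its test thus depended on a high level in the group called higher. Without the filter on low values, 0 of 16 relatives were called higher in this comparison. *Msc* (musculin, a relative of *Tcf21*) followed at 0.74 and did not pass the test. *Flii* and *Meox2* had the lowest values at −0.20 and −0.18 and did not pass it either. The ratio of *Meox1* to *Meox2* was 2.24 and 1.42 in sham hearts, 2.65 and 2.65 in WT infarcts, and 4.61 and 6.38 in infarcts labelled *Card9* KO.

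Sharing of reads with relatives was limited at the level of sequence. Of the stretches of 50 bases in *Acta2* transcripts, 0.404% also occurred in another gene, *Actg1*, and 0.158% of those of *Ddr2* occurred in other genes, while the remaining 8 genes shared none. Exons of *Tagln* overlap those of *Pcsk7* on the opposite strand, and exons of *Ddr2* overlap a long non-coding RNA, *3110045C21Rik*. Whether the counting used strand is not given in the sources used here, so reads of these overlapping genes cannot be told apart.

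Markers of other cells moved in the same libraries. The summed FPKM of 8 cardiomyocyte markers was 46276 and 48383 in sham hearts, 28890 and 29811 in WT infarcts, and 24041 and 28066 in infarcts labelled *Card9* KO; 6 of the 8 fell in WT MI against WT sham, although with quantile normalization 1 was called higher and 5 lower. That sum stood at 0.61 and 0.63 of the WT sham mean in WT MI, where *Gsn* stood at a ratio of group means of 0.617. Under the knockout label the sum stood at 0.508 and 0.593 of the WT sham mean, and *Gsn* at 0.415. Between the infarct groups limma called 0 of these 8 markers after adjustment, with 3 lower at an unadjusted p below 0.05. Their median log2 fold change was −0.16, beside −0.57 for *Gsn*. The part of cardiomyocytes in the lower *Gsn* was not tested. Macrophage markers summed to 411 and 352 in sham hearts, 1396 and 1793 in WT infarcts, and 2865 and 2074 in infarcts labelled *Card9* KO, and all 8 rose in WT MI against WT sham. Between the infarct groups limma called 0 of these 8 after adjustment, with 5 higher at an unadjusted p below 0.05, all 8 log2 fold changes above 0 and a median of 0.73, and 0 to 3 called over the alternative settings. Neutrophil markers summed to 7.64 and 5.40 in sham hearts, 212 and 92.9 in WT infarcts, and 59.8 and 46.7 in infarcts labelled *Card9* KO, and all 6 rose in WT MI. Between the infarct groups limma called 0 of 6 after adjustment, with 2 lower at an unadjusted p below 0.05. The part of these cells in the fibroblast gene values was not tested.

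Endothelial markers varied less, with sums of 332 and 329 in sham hearts, 353 and 348 in WT infarcts, and 406 and 400 in infarcts labelled *Card9* KO, and limma called 0 of 6 between the infarct groups after adjustment, with 2 higher at an unadjusted p below 0.05. In WT MI against WT sham 1 of the 6 was called higher and 1 lower, and with upper-quartile scaling none was higher and 2 were lower. Epicardial and mesothelial markers were scarce. Only *Wt1* and *Krt19* of 6 passed the filter on low values, and between the infarct groups limma called 0 of these 2 after adjustment, with 1 lower at an unadjusted p below 0.05. The sum of these 6 was 5.71 and 7.58 in sham hearts, 9.43 and 5.77 in WT infarcts, and 4.72 and 4.26 in infarcts labelled *Card9* KO, and *Upk1b* was listed in 2 of the 6 libraries.

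**Figure D4:**
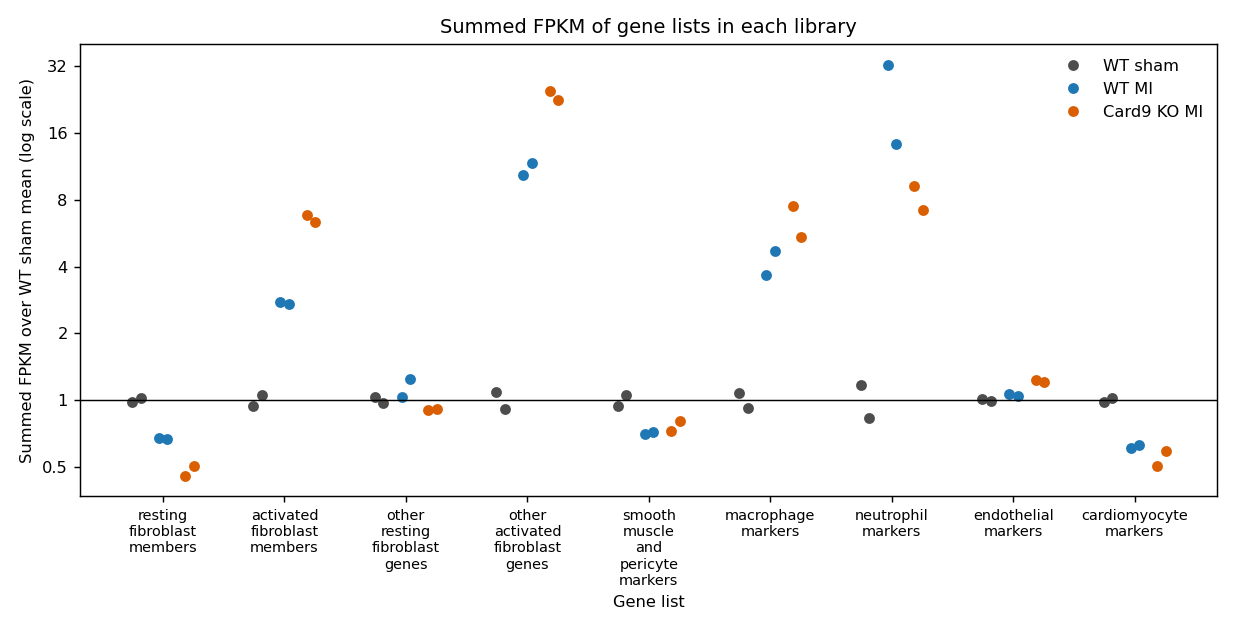
Summed FPKM of 9 gene lists (horizontal axis) in each library (points, coloured by group), divided by the mean of the WT sham libraries, on a log scale with a line at 1. The activated fibroblast genes reach 2.76 and 2.70 in WT infarcts and 6.85 and 6.33 in infarcts labelled *Card9* KO, the other activated genes 10.3 and 11.7, then 24.7 and 22.6, and macrophage markers 3.66 and 4.70, then 7.51 and 5.43, while smooth muscle and pericyte markers stay between 0.708 and 0.807 in all 4 infarct libraries, in a sum that follows mainly *Rgs5*, *Smtn* and *Abcc9*.

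The genes with the profiles most like those of the 10 were sought over the 6 libraries, as the smallest root mean square difference of log2(FPKM + 1) after each gene was centred on its own mean. With 6 libraries in 3 groups such likeness is a description only. The measure is not divided by the spread of a gene over the libraries, which was 0.162 for *Pi16*, 0.322 for *Ddr2* and 2.445 for *Cthrc1* as a root mean square on the log2 scale, so distances are not compared between the 10 genes. For *Cthrc1* the nearest were *Gpnmb* at 0.391 and *Lgals3* at 0.395, both abundant in macrophages, and for *Acta2* they were *Serinc2* at 0.208 and *Syce2* at 0.215. In sham hearts the FPKM of *Serinc2* was 0.17 and 0.17 and that of *Syce2* 0 and 0.90, so their distances depend on the 1 added to FPKM. For *Tagln*, *Cd72* at 0.114 and *Clec12a* at 0.149, both surface receptors of leukocytes, were nearest. *Gpnmb* had an FPKM of 1.07 and 0.69 in sham hearts, 13.62 and 36.39 in WT infarcts, and 111.32 and 58.20 in infarcts labelled *Card9* KO. For *Meox1* they were *H2-M3* at 0.077 and *Blnk* at 0.089, and for *Fap* they were *Abi1* at 0.051 and *Fam189b* at 0.059.

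Among the resting genes, *Dpep1* was most like *Usp2* at 0.089 and *Ntn1* at 0.097. *Usp2* had an FPKM of 33.97 and 34.19 in sham hearts, 35.68 and 35.05 in WT infarcts, and 16.08 and 21.11 in infarcts labelled *Card9* KO, so that it too was low under the knockout label alone. *Gsn* was most like *Prob1* at 0.053 and *Oxld1* at 0.054, *Tcf21* like *Cryl1* at 0.098 and *Cntrl* at 0.105, *Pi16* like *Thada* at 0.051 and *Pggt1b* at 0.053, and *Ddr2* like *Acbd3* at 0.020 and *Yipf1* at 0.029. At a distance below 0.2 lay 2035 genes for *Ddr2*, 2021 for *Pi16*, 395 for *Gsn*, 128 for *Tcf21* and 77 for *Dpep1*. Among the activated genes there were 469 for *Fap*, 47 for *Meox1*, 4 for *Tagln* and 0 for *Acta2* and *Cthrc1*. Where such counts are high, the named genes are only the nearest of many.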

How the data were processed

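RNA of heart tissue below the ligature was measured in 6 libraries, grouped and numbered by their labels. Per the study's methods, the authors made libraries from TRIzol RNA after mRNA enrichment, ran them on a HiSeq instrument, filtered the reads and aligned them to mm9 (BWA and Bowtie2). Each deposited value is the FPKM of an NCBI gene number in a library. The deposited FPKM files list only genes above 0, and unlisted genes were set to 0. FPKM is relative to its library, so changes of a few abundant genes shift all others. The gene annotation and the use of strand in counting are not given in the sources used here. Symbols were found for 17390 of 17441 gene numbers, and positions are those of the GENCODE annotation of mm9.

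Depth was estimated from the steps between low values of 3660 genes with 1 annotated transcript. Only 57.4% to 65.4% of these values came out within 0.1 of a whole fragment, so no counts were rebuilt. Fragment numbers, floors and intervals cover counting error only.

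The test was limma 3.58.1 (lmFit and eBayes with trend = TRUE) in R 4.3.3 on log2(FPKM + 1), without covariates, with an adjusted p below 0.05 as a call. With 2 libraries against 2, an exact permutation test cannot give a p below 0.333, and none was run. Tables were made with Python 3.11.15 and pandas 2.3.3. Alternatives changed the value added to FPKM (0.1 or 5), the filter (none, or a mean of 5 FPKM), the scaling (upper quartile, quantile, or the sum of all but the 100 most abundant genes) and the fit (both groups compared only, no trend, replicate number as block, or any of the 6 libraries left out).

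The 10 genes and the gene lists were chosen with earlier results of these data known. Genes named beside the 10 and *Card9* are, per list, the 2 with the largest log2 fold change upwards and the 2 with the largest downwards in the comparison described, and for each of the 10 the 2 genes of nearest profile. Genes outside this rule, including *Myh11*, *Srf* and *Meox2* where they are given for their levels or ratios, were chosen after their values were seen. Promoters come from a RefSeq table of GRCm38.p6, used for sequence only.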

Additional observations from a re-analysis of the deposited data

How the results depend on the processing

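In WT MI against WT sham and in *Card9* KO MI against WT sham, the counts of the 10 genes called stayed within 1.5 times the reported ones under all 16 alternatives, with 5 to 7 and 7 to 9 genes called when each library was left out in turn. In *Card9* KO MI against WT MI they did not. Where 5 of the 10 genes were called with all libraries, 0 to 5 were called with one library left out, with 0 to 4 higher instead of 3 and 0 to 1 lower instead of 2. With 0.1 added to FPKM, 2 genes were called, 1 higher and 1 lower. Without the filter on low values, 1 was called, as higher, and 0 as lower. With eBayes without trend, 2 were called and 0 of them as lower, and in the fit of only the groups compared 0 were lower. At least 6 of the 10 genes had an unadjusted p below 0.05 in each of these fits. No filter adds genes to the adjustment, and leaving out a library takes samples away; for the other settings the cause was not tested. Over all genes, this comparison called 184 genes, against 80 and 312 with 0.1 and 5 added, 12 without the filter, 101 in the fit of only the groups compared, 58 without trend, 71 with the replicate block, and 8 to 96 with one library left out.

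The replicate numbers were not taken to pair the samples: the deviations of same-numbered libraries from their group means correlated at 0.002, −0.008 and 0.020 across genes, and the labels name no shared litter or day. With the replicate block, 3 of the 10 genes were called in *Card9* KO MI against WT MI, 2 higher and 1 lower, 7 in WT MI against WT sham and 8 in *Card9* KO MI against WT sham.

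Among the 10 genes, changes of sign occurred in those that did not pass the test. Of the other listed genes, *Tnnt2*, *Actc1* and *Tpm1* were called lower in *Card9* KO MI against WT sham, at −0.58, −0.39 and −0.30, and stood at 0.09, 0.49 and 0.39 with quantile normalization. In WT MI against WT sham, *Tcf21* ranged from −0.19 to 0.36 with one library left out, and stood at −0.05 with upper-quartile scaling, −0.20 with quantile normalization, −0.04 without the 100 most abundant genes, and −0.08 without WT sham replicate 1. *Dpep1* ranged from −0.11 to 0.10 with one library left out, and was 0.04 without WT sham replicate 2. In *Card9* KO MI against WT MI, *Pi16* ranged from −0.24 to 0.10 and *Ddr2* from −0.01 to 0.13 with one library left out, the sign being turned without *Card9* KO MI replicate 1, and *Ddr2* stood at −0.02 with quantile normalization. *Fap* could not be tested at a mean FPKM of at least 5. With an estimated 3022000 to 4300000 fragments per library and 2 libraries per group, levels of *Cthrc1* and *Fap* in WT sham lie near the detection limit.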
